A study of Mus musculus with 8 samples.

Results

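Klf12, Pcdh9, Klhl1 and Gpc6 are 4 long protein-coding genes that lie to either side of Dach1 on mouse chromosome 14. They were taken from 845 protein-coding genes of that chromosome lying more than 1 Mb from a Cas9 cut in Dach1, and were chosen by their counts of translocation junctions, the highest of those genes, in the library from cells given normal ataxin-7. The member with the fewest junctions in that library was Pcdh9 with 14, and the next gene outside the set was Fhit with 10. These counts chose the genes, so they are described here and carry no test. A rate above that of other sequence in the same library is likewise partly built in by the choice. The definition of the set also took in the other libraries read from Dach1, so their counts are not independent of the choice.

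The junctions came from genome-wide translocation sequencing in Neuro-2a cells, a mouse neuroblastoma line. A break is cut at a known bait, a biotinylated primer beside the cut is extended across it, and the sequence that follows shows which DNA (the prey) the broken end was joined to. All groups received SpCas9 and an sgRNA from the PX458 plasmid, which also carries a GFP reporter, by transient transfection. The groups at bait site 1, in Dach1, were ataxin-7 with 10 glutamines plus the site 1 sgRNA (10Q), ataxin-7 with 92 glutamines plus the site 1 sgRNA (92Q), the site 1 sgRNA without ataxin-7 (the positive control, called sgRNA only), and a non-targeting sgRNA. The same 4 groups exist for bait site 2, in Supt16. Cells were collected after 48 h and sorted for GFP, and 3 transfections were pooled before sequencing, so each group is 1 library and no spread between replicates exists. All intervals below are exact 95% intervals, and the limit given for a count of 0 is instead 3 counts of the total. The reads carry no molecular identifiers, so PCR copies cannot be counted apart. Reads with the same position and strand were collapsed to 1 distinct junction, and the intervals cover counting error only. The design text names an sgRNA-only control for site 2 alone, and the site 1 control rests on its sample label.

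The cut that all members are measured against was set by the guide of site 1, and the guide of site 2 serves as a control cut on the same chromosome. They are shown as listed by the submitters, 5′ to 3′, with the 3 bases between the usual SpCas9 cut and the PAM in capitals, followed by the bait primers.
Site 1 sgRNA: ggtagacatcagcgctgTTG
Site 2 sgRNA: ctcgcagccctccaccgTAA
Site 1 bait primer: actaaaaagagcgcccctctttc
Site 2 bait primer: ggtttcccctccgctcttta

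When a chromosome has more than 1 break, repair by end joining can link ends that do not belong together, and ends that lie near each other along the chromosome meet more often than distant ones. A gene can therefore collect many junctions because it is close to the bait, because it is long and offers more sequence, or because its own rate is high. Long genes of the nervous system and of cell adhesion are a class in which recurrent breaks have been described in neural cells under replication stress.

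The bait end of site 1 lay at position 98168726 of chromosome 14 (mm10), inside Dach1 (97786846 to 98169765), a gene for a transcription regulator of the dachshund family. Klhl1, which encodes a neuronal actin-binding protein of the kelch-like family, spans 414 kb (96105265 to 96519034) at 1.65 to 2.06 Mb on the lower-coordinate side. Klf12, which encodes a zinc-finger transcription repressor of the Krüppel-like family, spans 420 kb (99866181 to 100285891) at 1.70 to 2.12 Mb on the other side. Klhl1 and Klf12 are thus near mirror images in length and distance. Pcdh9, which encodes a cell adhesion protein of the delta protocadherin family, spans 879 kb (93013700 to 93892834) at 4.28 to 5.16 Mb on the lower-coordinate side. Gpc6, which encodes a glypican, a cell-surface heparan sulfate proteoglycan, spans 1055 kb (116924920 to 117979529) at 18.8 to 19.8 Mb on the higher-coordinate side.

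The 4 genes lie in unlike surroundings. No other protein-coding gene lay within 1 Mb of Pcdh9 and 1 lay within 1 Mb of Klhl1, against 6 for Klf12 and 10 for Gpc6. Other gene bodies covered 11.8% of the 1 Mb flanks of Klf12 and 54.8% of those of Gpc6. By length the 4 ranked 4 (Gpc6), 6 (Pcdh9), 20 (Klf12) and 21 (Klhl1) among the 850 protein-coding genes of the chromosome. Klf12, Pcdh9, Klhl1 and Dach1 itself all are transcribed from the minus strand in the RefSeq promoter table (GRCm38.p6, the assembly behind mm10).

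The site 1 libraries held 5542 (10Q), 3873 (sgRNA only), 816 (92Q) and 128 (non-targeting) distinct junctions. On chromosome 14 and more than 1 Mb from the bait end, called distal here, lay 812, 358, 51 and 8 of them. Counts are not scaled to sequenced reads, and the number of cells or breaks behind each library cannot be told apart from its depth. Shares of the distal junctions were therefore set beside the raw counts.

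Together the 4 bodies held 75 distal junctions in the 10Q library, 21 in the sgRNA-only library, 5 in the 92Q library and 0 in the non-targeting library. As shares of the distal junctions these were 9.24% (7.33 to 11.4) in 10Q, 5.87% (3.67 to 8.83) in sgRNA only and 9.80% (3.26 to 21.4) in 92Q. The genes make up 2.31% of the distal length of the chromosome, but they also lie nearer to the bait than most of it. The raw count was far lower in 92Q than in 10Q while the shares were alike, and the 3 intervals of the shares overlap. The 0 of 8 in the non-targeting library allows a share of up to 37.5%, so that library cannot show whether the bodies gather junctions without a targeted cut.

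**Figure D1:**
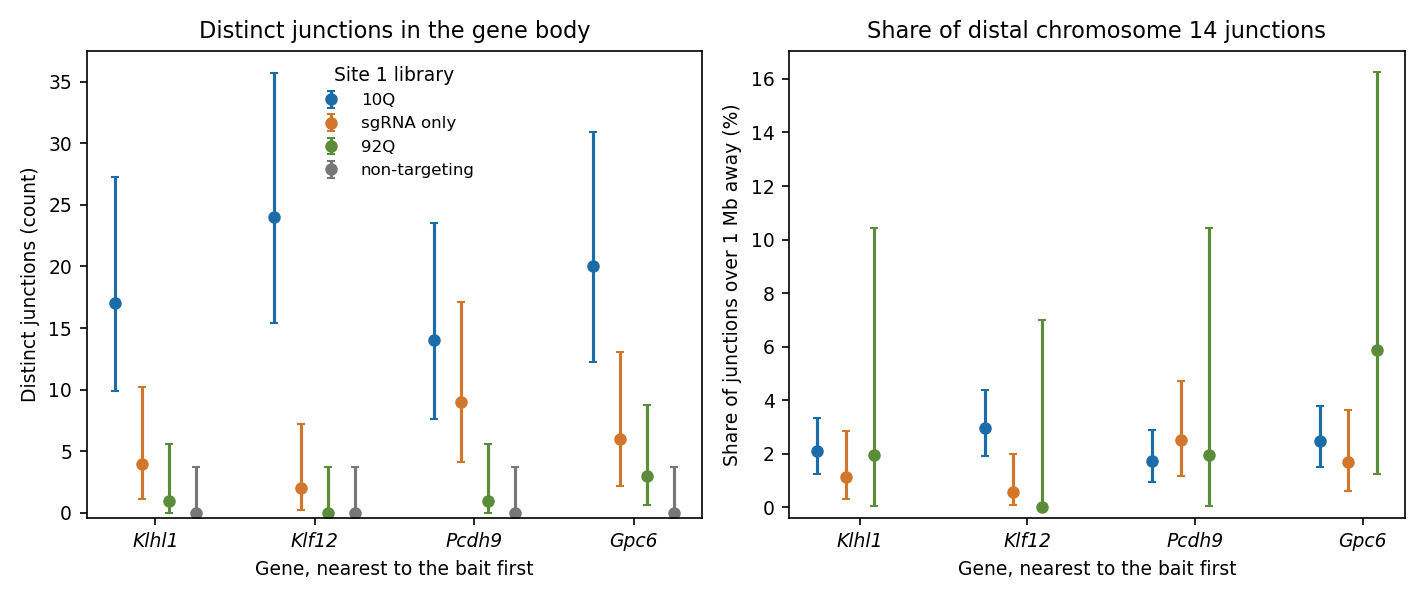
Left, distinct junctions in each gene body (count, points) for the 4 site 1 libraries; right, the same junctions as a percent of all chromosome 14 junctions over 1 Mb from the bait end for the 3 libraries with a targeting sgRNA. Bars are exact 95% intervals for counting error. The 10Q counts, by which the genes were chosen, stand highest for every gene. The share of Klf12 is 2.96% in 10Q against 0.559% in sgRNA only. These intervals overlap, while the ratio of the shares is 0.189 (0.0217 to 0.761), a low ratio being favoured by the choice of the genes.

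Klf12 had the highest count of the 845 genes with 10Q. It held 24 junctions (41 reads) in the 10Q library, 2 (2 reads) in sgRNA only, 0 in 92Q and 0 in non-targeting. Its share of distal junctions was 2.96% (1.90 to 4.37) with 10Q and 0.559% (0.0677 to 2.00) with the sgRNA alone. At the 10Q share the sgRNA-only library would have held 10.6 junctions in Klf12, and the ratio of the shares was 0.189 (0.0217 to 0.761). In the 92Q library the same share would have meant 1.51 junctions, so its 0 of 51 (a share of up to 5.88%) does not separate it from 10Q. Because Klf12 was picked for its high 10Q count, a ratio under 1 is favoured by the choice, and its interval is a description of counting error and no test.

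Klhl1, the mirror of Klf12 in length and distance, held 17 junctions (30 reads) in the 10Q library, 4 (5 reads) in sgRNA only, 1 in 92Q and 0 in non-targeting. Its share went from 2.09% (1.22 to 3.33) with 10Q to 1.12% (0.305 to 2.84) with the sgRNA alone, a ratio of 0.534 (0.131 to 1.64). The same choice favours a low ratio here, and the ratios of Klhl1 and Klf12 were not tested against each other. Per length, Klf12 had 57.2 junctions per Mb (36.6 to 85.1) and Klhl1 41.1 (23.9 to 65.8) with 10Q, while with the sgRNA alone the order was the opposite, 4.77 (0.577 to 17.2) against 9.67 (2.63 to 24.8). Neither order exceeds the counting error.

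Pcdh9 held 14 junctions (21 reads) in the 10Q library, 9 (16 reads) in sgRNA only, 1 in 92Q and 0 in non-targeting. It was the only member with a larger share with the sgRNA alone, at 2.51% (1.16 to 4.72), than with 10Q, at 1.72% (0.946 to 2.88). The ratio of 1.46 has an interval of 0.557 to 3.62, which leaves the order unsettled. In the sgRNA-only library Pcdh9 had the highest count of the 845 genes.

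Gpc6, the farthest member, held 20 junctions (27 reads) in the 10Q library, 6 (7 reads) in sgRNA only, 3 (3 reads) in 92Q and 0 in non-targeting. Among the 845 genes it ranked 2 in both 10Q and sgRNA only, and 1 in 92Q. Its shares were 2.46% (1.51 to 3.78), 1.68% (0.617 to 3.61) and 5.88% (1.23 to 16.2), whose intervals overlap. One of the 3 junctions with 92Q had the same position and strand as a 10Q junction, a plus-strand read of mapping quality 42 in each library. Without it the counts were 19 with 10Q and 2 with 92Q. Of the 51 distal 92Q junctions on chromosome 14, 2 were shared in this way with the 10Q library, and all 8 libraries came from the same sequencing run, whose part in this was not tested.

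Each body was next set against other chromosome 14 sequence at the same distance from the bait end. The comparison sequence lay on both sides of the bait, within the distance range of the gene widened by 0.5 Mb, with all 4 members and everything within 1 Mb of the bait end left out. Klf12 and Klhl1 share nearly all of their comparison sequence, so their ratios are not separate measurements of it.

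In the 10Q library all 4 ratios were above 1, the direction that the choice of the genes favours. Klf12 held 24 junctions where 11.7 were expected, a ratio of 2.05 (1.21 to 3.36), and Gpc6 held 20 where 8.98 were expected, a ratio of 2.23 (1.18 to 4.15). Klhl1 stood at 17 against 11.6, a ratio of 1.46 (0.797 to 2.55), and Pcdh9 at 14 against 11.3, a ratio of 1.24 (0.619 to 2.35). The intervals of Klf12 and Gpc6 lay wholly above 1, as did 3.23% of the 93 chromosome 14 genes of at least 100 kb, both members included, against 1 of the 89 others. The members were picked on these very counts, so nothing is read from that difference. For Gpc6 that no longer held with junctions of mapping quality 30 or more (1.52, 0.633 to 3.45) or of at least 2 reads (1.32, 0.359 to 4.11), while for Klf12 it held in both (3.03, 1.61 to 5.56, and 2.29, 1.01 to 4.88). Against sequence on its own side of the bait alone, the ratio of Gpc6 was 3.79 (1.38 to 12.9) with 10Q and 2.84 (0.509 to 28.8) with the sgRNA alone.

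In the sgRNA-only library the same 4 genes fell to both sides of 1. The definition of the set took in this library too, so its values are no independent check of the 10Q ones. The ratio was 0.281 (0.0327 to 1.10) for Klf12, from 2 junctions against 7.11 expected. It was 0.551 (0.142 to 1.54) for Klhl1, from 4 against 7.26. It was 1.96 (0.758 to 4.79) for Pcdh9, from 9 against 4.58, and 1.34 (0.417 to 3.77) for Gpc6, from 6 against 4.49. Summed over the 4 genes, the observed count was 0.896 times the expected one (0.554 to 1.37), against 1.72 times (1.35 to 2.16) with 10Q. The 10Q sum is raised by the choice of the genes. The sgRNA-only sum was above 1 under 3 of 11 other settings, at 1.03 with a band widened by 1 Mb, 1.06 against the same side of the bait and 1.32 with a power law of distance, which put Klf12 alone at 0.542. Both summed intervals carry the counting error of the observed junctions alone. Of the 93 genes, 86 had a ratio in sgRNA only, 36 had one in 92Q, and none of these had an interval wholly above 1 (0% in each). With 92Q the expected counts were 0.628 for Klf12, 1.53 for Pcdh9 and 0.623 for Klhl1, and the comparison sequence of Gpc6 held 0 junctions, so no ratio could be formed for it.

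**Figure D2:**
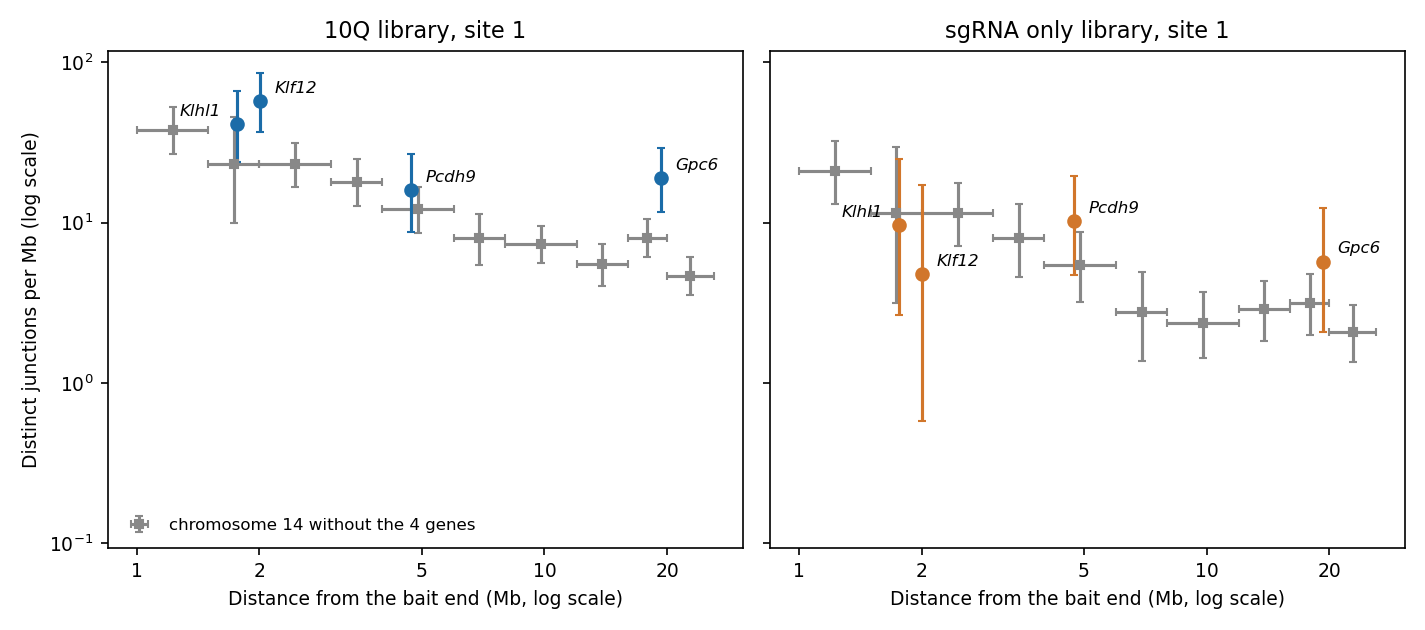
Distinct junctions per Mb (log scale) against distance from the site 1 bait end (Mb, log scale) for the 10Q library (left) and the sgRNA-only library (right). Grey squares are chromosome 14 without the 4 genes, both sides of the bait together, with horizontal bars for the distance class; coloured points are the genes, with Klhl1 and Klf12 moved slightly apart sideways, and vertical bars are exact 95% Poisson intervals. With 10Q, where they were chosen, the genes lie on or above the grey course. With the sgRNA alone Klf12 lies below it at 4.77 per Mb, from 2 junctions.

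Away from the 4 genes, the density with 10Q fell from 38 junctions per Mb at 1 to 1.5 Mb to 12.2 at 4 to 6 Mb and 4.67 at 20 to 26 Mb. With the sgRNA alone it fell from 21 to 5.45 and 2.08 over the same distances. The density in Klf12 with 10Q, 57.2 per Mb, therefore lay above even the value at 1 to 1.5 Mb (38, 26.9 to 52.2), although the intervals overlap. Gpc6, at 19.0 per Mb (11.6 to 29.3), lay above the 8.06 (6.09 to 10.5) measured at 16 to 20 Mb without it. Klf12 and Gpc6 were chosen by these very 10Q counts, which favours such an excess, so nothing is read from it. Of the 20 junctions in Gpc6, 10 had a mapping quality of 30 or more. All 4 genes were denser than sequence on other chromosomes, both with 10Q and with the sgRNA alone. For Klf12 with the sgRNA alone the difference was within counting error. Sequence on other chromosomes held 0.913 junctions per Mb with 10Q and 0.621 with the sgRNA alone. Chromosome 14 without the genes was also above this level at each distance just given, so such an excess is not particular to the genes. The excess over that level was 62.6-fold (40.0 to 93.4) in Klf12 with 10Q and 7.68-fold (0.929 to 27.8) with the sgRNA alone. Klf12 was chosen by its 10Q count, which favours a higher value there, so the pair is described and not tested. The sgRNA-only value rests on 2 junctions of 1 read each, 1 of them with mapping quality 0. In Pcdh9 the excess was nearly the same in both, 17.4-fold (9.52 to 29.3) and 16.5-fold (7.53 to 31.4).

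To see whether length itself goes with a high rate, every chromosome 14 protein-coding gene of at least 400 kb beyond 1 Mb was described in the same way, 22 genes in all. All 22 together held 134 junctions with 10Q where 119 were expected, with a median ratio of 0.953, beside 0.880 over all 93 genes of at least 100 kb. Split by the choice of the members, which itself sets the 2 sides apart, the other 18 held 59 against 75.5 (median ratio 0.825) and the members 75 against 43.6 (median ratio 1.76). With the sgRNA alone the 20 genes whose comparison sequence held a junction had 41 against 45.0 expected, of which 16 non-members had 20 against 21.6 and the members 21 against 23.4. The remaining pair held 4. With 92Q the 18 held 1 junction, in Enox1, whose comparison sequence held 0, and the members held 5. None of the 18 had an interval that excluded 1 in any of the 3 libraries, although a ratio could be formed for 16 of them with the sgRNA alone and for 8 with 92Q.

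Among these 18, Gpc5, the glypican gene next to Gpc6, is the closest comparison, at 1433 kb and 16.9 Mb from the bait end. It held 9 junctions in 10Q, 2 in sgRNA only and 0 in 92Q. Per length that was 6.28 junctions per Mb (2.87 to 11.9) with 10Q, against 19.0 (11.6 to 29.3) in Gpc6, and its ratio to sequence at the same distance was 0.616 (0.260 to 1.31). Fhit, a common fragile site gene of 1612 kb that lies 87.0 Mb away, held 10 junctions with 10Q against 8.06 expected and 3 with the sgRNA alone. Where the distance from the bait exceeds what the higher-coordinate side of the chromosome offers, the comparison sequence shrinks to 1 Mb, so the expected values of the far genes are coarse. Grid1, a glutamate receptor gene, held 0 junctions with 10Q against 3.05 expected, and Cacna1d, a calcium channel gene, held 3 against 0.902.

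**Figure D3:**
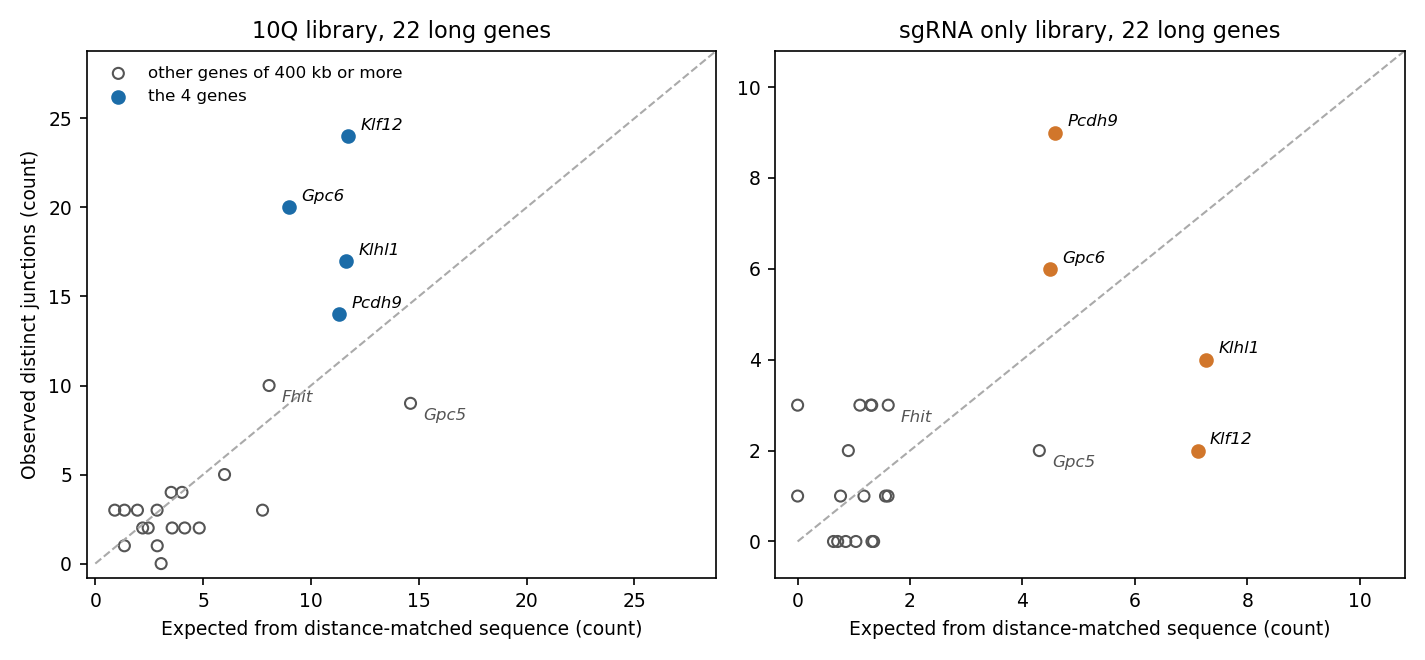
Observed distinct junctions (count) against the count expected from sequence at the same distance for the 22 chromosome 14 genes of at least 400 kb, with 10Q (left) and with the sgRNA alone (right); the dashed line marks equality and the axes differ between panels. Filled points are the 4 genes, which all lie above the line with 10Q, where they were chosen, and on both sides of it with the sgRNA alone; open circles are the other 18.

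By their counts in 10Q, in sgRNA only and in 92Q, the genes most like the members were Fhit (10, 3 and 0 junctions), Gpc5 (9, 2 and 0), Mycbp2 (3, 3 and 1), a ubiquitin ligase gene, and Hs6st3 (4, 1 and 0), a heparan sulfate sulfotransferase gene. Likeness was the Euclidean distance of square-root counts from the median of the members over 3 libraries, from 1.59 for Fhit to 2.79 for Hs6st3. The steps from the members to these genes are large relative to the counts, and the 4 ratios to distance-matched sequence with 10Q lay between 0.616 (Gpc5) and 1.24 (Fhit).

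**Figure D4:**
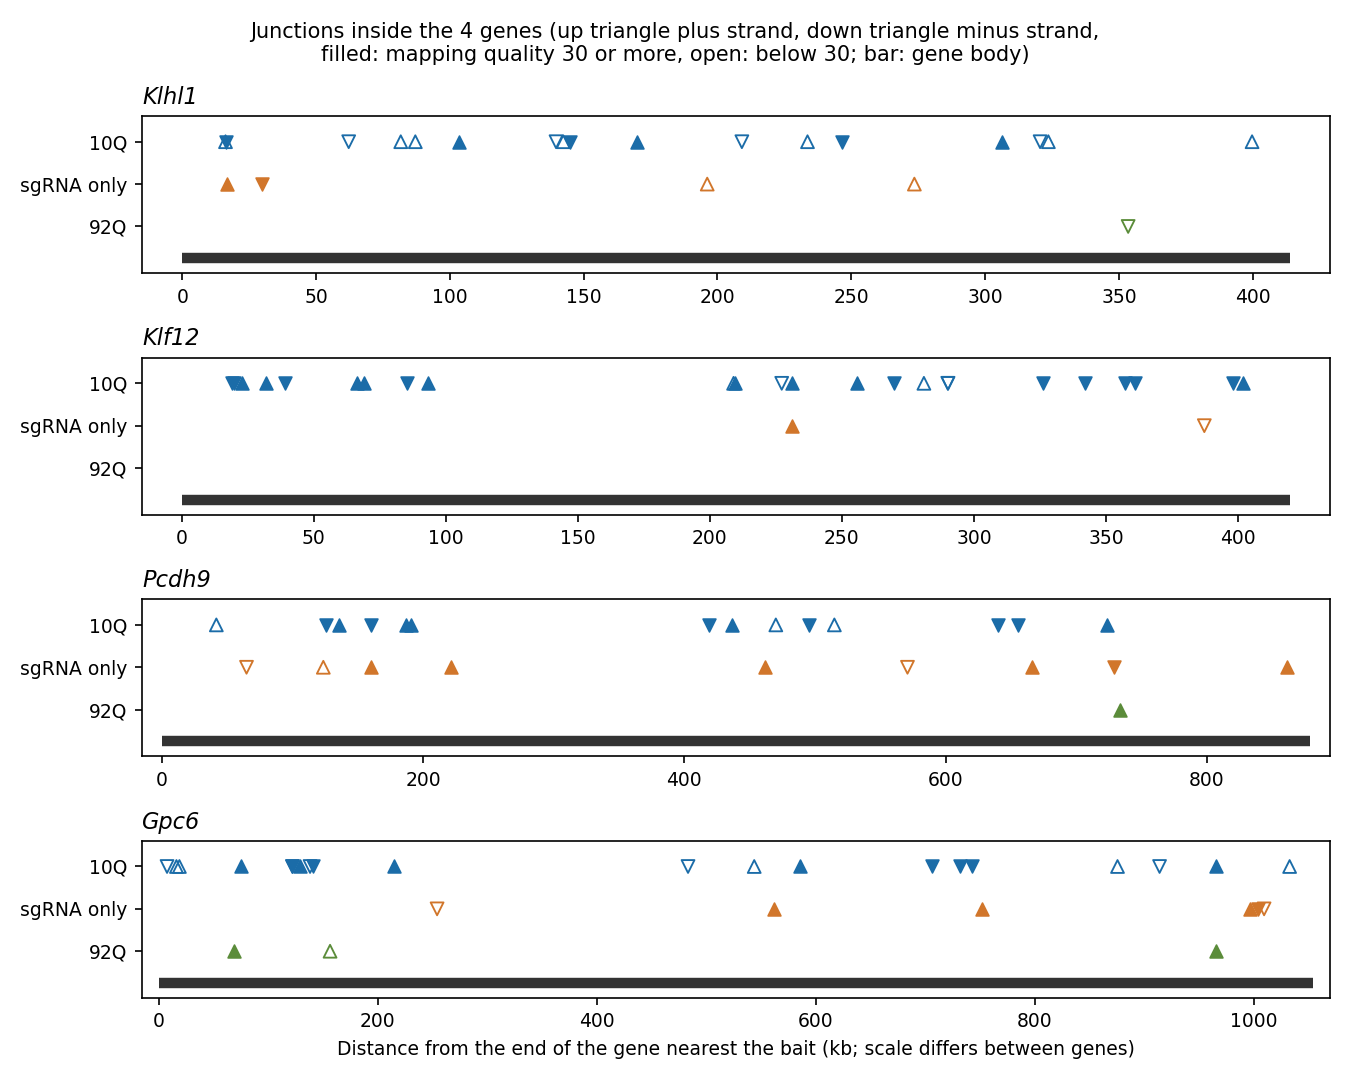
Each junction inside the 4 genes for the 3 site 1 libraries with a targeting sgRNA, by distance in kb from the end of the gene nearest the bait (scale differs between genes). Up and down triangles are plus-strand and minus-strand junctions, filled ones have a mapping quality of at least 30, and the bar is the gene body; junctions are spread along the bodies, and the longest empty stretch between 10Q junctions is 116 kb in Klf12, 76.1 kb in Klhl1, 228 kb in Pcdh9 and 268 kb in Gpc6.

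Within the bodies the junctions were spread out. Klf12 with 10Q held 9, 6 and 9 junctions in 3 equal parts from the 5′ to the 3′ end of the body, with a median gap of 9.10 kb. Klhl1 held 6, 7 and 4 from 5′ to 3′ and Pcdh9 held 6, 5 and 3, which for both is also the order away from the bait. In Gpc6 the part nearest the bait held 10, the middle one 3 and the farthest 7. Few junctions lay close together, with 3 gaps under 1 kb in Klf12, 1 in Klhl1, 1 in Gpc6 and 0 in Pcdh9 with 10Q. One pair in Klf12 lay 1 bp apart and had mapping quality 0.

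Of the 21 sgRNA-only junctions in the 4 bodies, 3 lay within 1 kb of a 10Q junction and 0 had the same position and strand. Over all 358 distal sgRNA-only junctions, the bodies included, 13 lay within 1 kb of a 10Q junction and 1 had the same position and strand. The 10Q junctions are denser in the bodies than in most distal sequence, so these counts cannot be compared directly. In Klf12 one of the pair of sgRNA-only junctions lay 231.249 kb into the gene, beside a 10Q junction at 231.221 kb on the same strand. The RefSeq promoter window of Klf12 (100149747 to 100150046) lies inside the annotated body, and those of Klhl1 and Pcdh9 at or near its 5′ end. No junction of the 3 targeted libraries lay in these windows. The nearest 10Q junctions were 2.53 kb from the window of Klf12, 4.59 kb from that of Klhl1 and 28.8 kb from that of Pcdh9.

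Strand and mapping quality played no part in choosing the genes and could be tested. The tests compare junctions within 1 library, which share a DNA pool, and do not compare conditions. For each chromosome 14 gene over 1 Mb from the bait end with at least 6 junctions in a library, the share of plus-strand junctions was compared with the other distal junctions on the same side of the bait (two-sided Fisher's exact test over 6 genes with 10Q and 2 with the sgRNA alone). The joined ends came in both orientations in every member. With 10Q the plus-strand share was 45.8% of 24 in Klf12 (25.6 to 67.2), 57.1% of 14 in Pcdh9 (28.9 to 82.3), 58.8% of 17 in Klhl1 (32.9 to 81.6) and 50.0% of 20 in Gpc6 (27.2 to 72.8). The other junctions stood at 46.7% beside Klf12 and at 57.6% beside Klhl1, and 0% of the genes were called (adjusted p = 1 by Fisher's exact test in all 4 members). At an unadjusted p under 0.05 the count was also 0. The intervals of the plus-strand shares are wide, so a sizeable difference in strand is not excluded. With the sgRNA alone the plus-strand share was 66.7% of 9 in Pcdh9 and 50.0% of 6 in Gpc6 (adjusted p = 0.506 for both by Fisher's exact test, 0% of genes called).

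Mapping quality shows how surely a read could be placed. With 10Q, 19 of 24 junctions in Klf12 (79.2%) and 11 of 14 in Pcdh9 (78.6%) had at least 1 read with a mapping quality of 30 or above, against 66.4% and 55.2% of the other distal junctions on the same side. In Klhl1 it was 6 of 17 (35.3%, against 56.5%) and in Gpc6 10 of 20 (50.0%, against 69.1%). None of these differences was called (0% of the 6 genes, and 0 at an unadjusted p under 0.05, with an adjusted p of 0.383 for Klf12 and 0.269 for the other 3 by Fisher's exact test). The interval for Klhl1 runs from 14.2% to 61.7%, so a sizeable difference in placement is not excluded. With well-placed junctions alone Klhl1 stood at 0.997 times (0.338 to 2.44) the distance-matched rate with 10Q. The sgRNA-only shares were 66.7% in Pcdh9 and 66.7% in Gpc6 (adjusted p = 1 for both by Fisher's exact test, 0% of genes called).

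Relatives of the members on other chromosomes held few junctions. Of 15 Krüppel-like factor genes off chromosome 14, 0 held a junction with 10Q, where 0.428 were expected from their length, and Klf8 held 1 with the sgRNA alone. Of 6 delta protocadherin genes 1 did, Pcdh11x with 1 junction against 1.13 expected for the group, and of 35 kelch-like genes 1 did, Klhl8 with 1 against 1.68, while Klhl32 held 1 with the sgRNA alone. The 4 glypican genes elsewhere held 0, against 0.448. The relatives on chromosome 14 itself were Klf5, with 2 junctions with 10Q in 14.7 kb, Pcdh17 with 1, Gpc5 with 9, and Pcdh8, Pcdh20 and Klhl33, each with 0. These expected values are so small that the absence of junctions could not be told from a rate like that of other sequence.

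Of 25 listed neighbours of the members on chromosome 14, 14 held a junction in 10Q, 8 in sgRNA only and 0 in 92Q, for 41, 15 and 0 junctions in all. Expected counts with 10Q were formed gene by gene for the neighbours over 1 Mb away, but not for the list as a whole. The list totals are therefore description alone. Of the 89 non-member genes of at least 100 kb over 1 Mb away, 61, 37 and 7 held a junction, but many listed neighbours are shorter. Pibf1, a centrosome gene between Dach1 and Klf12, held 7 junctions with 10Q and 5 with the sgRNA alone in 155 kb. It begins 0.931 Mb from the bait end and thus partly inside the stretch left out elsewhere. Mzt1, Bora and Dis3, which begin 0.866, 0.878 and 0.908 Mb away, lie wholly inside that stretch. They held 1, 1 and 0 junctions with 10Q and 0, 0 and 1 with the sgRNA alone. On the far side of Klf12, Tbc1d4, a regulator of glucose transporter traffic, held 3 and 2, and Lmo7, a cell junction gene, held 3 and 2. Uchl3, a ubiquitin hydrolase gene, held 2 and 1, and Nalcn, a sodium leak channel gene, held 2 and 0. The ratios of Tbc1d4 and Lmo7 to distance-matched sequence with 10Q were 0.829 (0.165 to 2.57) and 0.95 (0.187 to 3.02). Diaph3, a formin gene of 486 kb, held 4 and 1, with a ratio of 1.14 (0.280 to 3.45) with 10Q.

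The site 2 libraries served as a control, with a bait end at 52181662 in Supt16, a histone chaperone gene. Their bait lies 46.0 Mb from the Dach1 cut and 40.8 to 64.7 Mb from the members. The 4 bodies held 0 junctions in all of them, out of 8 (10Q), 8 (92Q), 18 (sgRNA only) and 1 (non-targeting) chromosome 14 junctions over 1 Mb from that bait. The 0 of 18 allows a share of up to 16.7%, which is above the 5.87% and 9.24% seen at site 1. At this depth the site 2 libraries could not show whether the members take up junctions from a distant cut.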

How the data were processed

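The authors deposited 16 read lists, 2 per library (on-cut and off-cut). Bowtie2, mm10 and mm9 are named per the submitters' processing notes, but neither a version nor which build served for what. Coordinates were read as mm10, in which both bait ends fall in the labelled genes. The only measured value in the deposited lists is a score, the mapping quality (0 to 42). How reads were filtered or deduplicated is not given in the sources used here. Gene bodies came from a RefSeq table (GRCm38.p6), which gives no exons, so a junction is inside or outside a body.

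Both lists were joined. The 5′ end of each read was the junction, repeats were collapsed, and 43 of 26488 reads outside the main chromosomes were dropped. The bait end was the commonest 5′ end in the non-targeting on-cut list. The first 3 Mb of the chromosome were left out of lengths. Rate ratios carry exact conditional intervals, shares Clopper-Pearson and counts Poisson intervals (95%), with Python 3.11.15 and scipy 1.17.1. Fisher p-values were adjusted by Benjamini-Hochberg over all genes with at least 6 junctions. Rate ratios were checked on simulated junctions, with more distal junctions per run than any library held and a steeper fall with distance. The check therefore does not cover counts as sparse as those of these libraries.

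The members, lists and tests were chosen with earlier results of these data known. Named genes were the members, the chromosome 14 genes of at least 400 kb, the 4 genes of most similar counts, list genes with 2 or more junctions and the bait genes. Named outside this rule, after their values were seen, were Fndc3a and the list genes with 1 junction or 0.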

Additional observations from a re-analysis of the deposited data

How the results depend on the processing

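The combined count of 75 junctions in the 4 bodies with 10Q was 46 with mapping quality 30 or more, 28 with at least 2 reads and 119 with every read counted. The sgRNA-only count of 21 was 13 and 6 under the first 2 of these settings, and the 92Q count of 5 was 3 and 0. With at least 2 reads the 92Q share was thus 0%, but its exact interval of 0 to 97.5% is too wide to compare with the other shares. The combined share of distal junctions stayed between 8.75% and 9.52% with 10Q and between 5.62% and 5.95% with the sgRNA alone over 5 settings. Over 11 settings the ratio to distance-matched sequence with 10Q ran from 1.86 to 3.03 for Klf12, 1.32 to 3.79 for Gpc6, 0.997 to 2.02 for Klhl1 and 1.09 to 1.59 for Pcdh9. With the sgRNA alone the ratio of Klf12 ran from 0 (at least 2 reads) to 0.542 (a power law of distance). That of Gpc6 was 4 against flanks as long as the gene, a setting chosen after seeing the data, and that of Klhl1 ran from 0.386 to 1.09. With 92Q, the ratio of Gpc6 could be formed with a band widened by 1 Mb (14.4, 1.15 to 755) and a power law (6.78, without an interval). Both values rest on 3 junctions of 1 read each. With every read counted, the sgRNA-only interval of Pcdh9 lay above 1 (2.38, 1.17 to 4.75) and that of Klf12 below 1 (0.180, 0.0213 to 0.684). The cause of these shifts was not tested. Differences in strand or mapping quality that were not called changed sign in 5 cases: in points of plus-strand share with 10Q, Klf12 with positions within 5 bp merged (1.10), Pcdh9 and Gpc6 against both sides of the bait (3.01 and -4.29) and Klhl1 with mapping quality 30 or more (-6.54), and in well-mapped share with the sgRNA alone, Gpc6 against both sides (5.59), with an adjusted p of 1 by Fisher's exact test in all 5. No paired analysis was possible because each group is 1 library and the labels carry no replicate numbers. Depth limits the 92Q library, with 51 distal junctions, and still more the non-targeting and site 2 libraries, with 1 to 18.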

Other observations

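Outside the members, Fndc3a, a gene of 173 kb at 25.5 Mb from the bait end, was the other chromosome 14 gene of at least 100 kb whose 10Q interval lay wholly above 1, with 3 junctions against 0.477 expected (6.29, 1.02 to 29.4) and 1 junction with the sgRNA alone. It was singled out after its values were seen. Klhl33, a short kelch-like gene 47.3 Mb away, held 2 junctions with 92Q, 3 bp apart and with no read of mapping quality 30 or more, and 0 in the 10Q and sgRNA-only libraries.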
